A study of Drosophila melanogaster with 8 samples.

Results

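Neurons of the fly head pass signals to each other by releasing a transmitter at synapses, and 9 genes of this process are described here across fly strains and times of day. They are VGlut, ChAT, Gad1, Rdl, nSyb, brp, elav, para and cac. They were chosen by name: every probe set whose platform annotation gave one of these symbols was taken. All 9 genes were found, with 14 probe sets among the 18769 on the array that are not controls, and the whole array named 11982 genes. A probe set is a group of short probes that reads 1 transcript or a part of it.

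Transmission at a chemical synapse needs an enzyme that makes the transmitter, a transporter that fills vesicles with it, calcium that enters when an action potential arrives, proteins that fuse the vesicle with the membrane, and a receptor on the next cell. In Drosophila, acetylcholine is the main excitatory transmitter of the brain, GABA is the main inhibitory one, and glutamate is the transmitter of motor neurons and of some central neurons. Genes that are used in all neurons, such as elav, nSyb and brp, serve as markers of neurons.

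RNA from the heads of adult flies was measured on Affymetrix Drosophila Genome 2.0 arrays, with 1 array for each of 8 conditions and no replicates. Flies were kept for 3 days in 12 h of light and 12 h of darkness and collected at ZT4 or ZT16, that is 4 or 16 h after lights on. The 4 strains were w1118, a white-eyed control; w1118 with mir959-962-KO, a deletion within the miR-959 to miR-964 cluster of microRNA genes, called the knockout here; yw with tim-gal4 over the balancer chromosome CyO, called the tim-gal4 control; and yw with tim-gal4 and UAS-mir-cluster over CyO, called overexpression. The tim-gal4 driver is active in cells that use the clock gene tim, and the RNA came from whole heads, so that driver cells were measured together with all others. Both strains with tim-gal4 share the yw background and CyO, which the w1118 and knockout labels do not name. The sex and age of the flies and the number of heads in each sample are not given in the sources used here.

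Values are log2 intensities. The lowest was 2.32 on all 8 arrays, and values near it carry no measurable signal above background. Between 39.8% and 40.8% of the probe sets on an array had a log2 value of at least 4. The ZT16 arrays of the knockout and of the tim-gal4 control stood apart, because they carried transcripts of tissues outside the head. Of 15 accessory gland genes on the array, 14 reached a log2 value of 4 on each of these 2 arrays, against 0 or 1 on the other 6. For 17 testis genes the counts were 13 against 1, and for 13 gut genes they were 7 and 8 against 1. Glia, photoreceptor and muscle markers were seen on every array. The median level of the 11 muscle markers was 7.62 to 8.55 on the 2 arrays and 6.44 to 7.57 on the other 6. All 9 glial markers and all 10 photoreceptor markers on the array reached a log2 value of 4 on each of the 8 arrays. For the members, and for the other synaptic genes by their medians and the calls that moved most, values are also given without the 2 arrays, and the part of these tissues in each result was not tested.

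**Figure D1:**
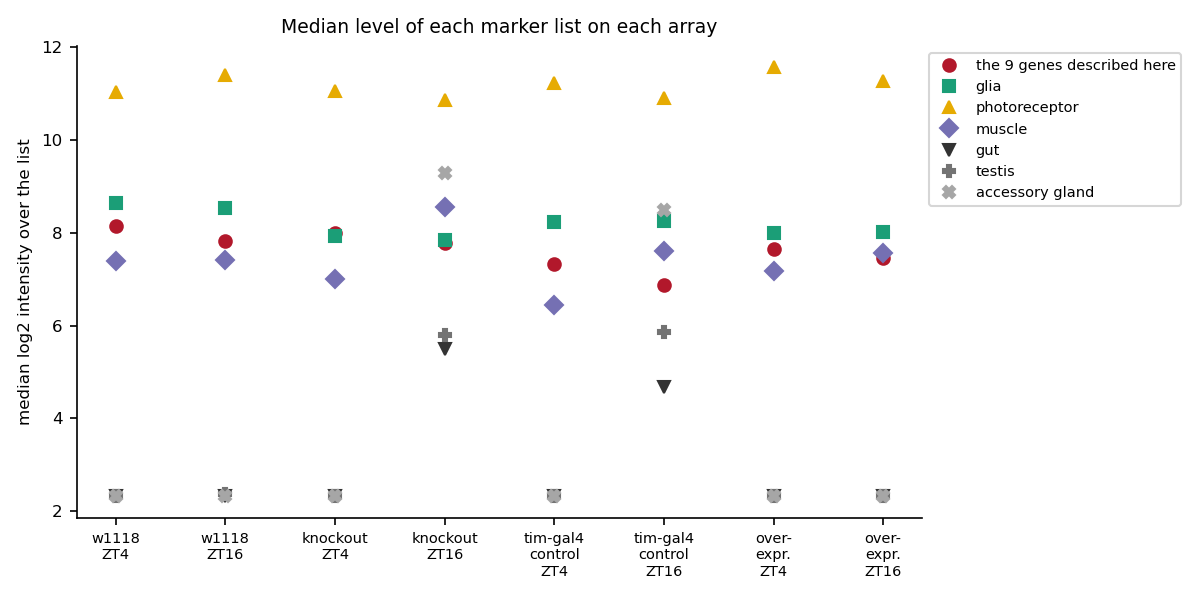
Median log2 intensity of the 9 genes described here and of 6 marker lists (y axis) on each of the 8 arrays (x axis), 1 point per list and array. Gut, testis and accessory gland lists sit near the lowest value on 6 arrays and rise on the ZT16 arrays of the knockout and the tim-gal4 control, while the 9 genes have their lowest median, 6.88, on the latter.

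The enzymes that make transmitters were well seen in all strains. ChAT encodes choline acetyltransferase, which makes acetylcholine. Its probe set (1640284_at) read 8.66 at ZT4 and 8.67 at ZT16 in w1118, and in the same order 8.46 and 8.06 for the knockout, 7.34 and 6.88 for the tim-gal4 control, and 7.66 and 7.45 for overexpression. All 4 arrays of w1118 and the knockout were above all 4 arrays of the yw strains. Gad1 encodes glutamic acid decarboxylase, which makes GABA. Its probe set (1627818_s_at), of the kind that can read more than 1 transcript, read 10.79 and 10.74 in w1118. It was 10.69 and 10.40 for the knockout, 10.47 and 10.32 for the tim-gal4 control, and 10.46 and 10.41 for overexpression. It was the steadiest of the 10 probe sets that passed the filter described below, with a range of 0.47 over the 8 arrays, and the strains overlapped except for w1118, which was highest.

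VGlut encodes the transporter that fills vesicles with glutamate, and it read near the lowest value in w1118 and the knockout. One of its probe sets (1640545_at) stayed at 2.32 on every array. The other (1632620_at) read 2.68 at both times in w1118. It was 2.78 and 2.76 for the knockout, 3.72 and 3.67 for the tim-gal4 control, and 4.60 and 4.35 for overexpression. The strains did not overlap in this order, and overexpression alone reached a log2 value of 4. The levels in w1118 and the knockout are near the lowest value, so the size of a difference against them is not quantitative. Rdl encodes a subunit of the GABA-gated chloride channel, through which GABA inhibits neurons. Its probe set (1635005_a_at) read 8.84 and 8.51 in w1118. It was 8.47 and 8.10 for the knockout, 7.57 and 7.33 for the tim-gal4 control, and 7.81 and 7.62 for overexpression. As for ChAT, each array of w1118 and the knockout was above each array of the yw strains.

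Next come the proteins of the release site. nSyb encodes neuronal synaptobrevin, the vesicle protein that drives fusion with the membrane. Its probe set (1636838_a_at) read 7.75 and 7.83 in w1118. It was 7.16 and 6.93 for the knockout, 9.0 and 8.30 for the tim-gal4 control, and 8.94 and 8.77 for overexpression. Here the yw strains were higher, the knockout was lowest, and the tim-gal4 control and overexpression overlapped. The gene brp encodes Bruchpilot, a scaffold of the active zone where vesicles dock. Of its 4 probe sets, 1632538_at stayed at 2.33 on all arrays, and 1629132_at read 3.04 on the w1118 ZT4 array and between 2.38 and 2.42 on the other 7.

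The other brp probe sets ran in opposite ways. The first (1636216_at) read 5.58 and 4.78 in w1118. It was 5.24 and 4.78 for the knockout, 4.19 and 3.24 for the tim-gal4 control, and 3.97 and 4.42 for overexpression. The second (1625489_at) read 3.86 and 3.87 in w1118. It was 3.63 and 3.76 for the knockout, 5.09 and 4.35 for the tim-gal4 control, and 5.69 and 5.49 for overexpression. The w1118 and knockout arrays were all above the yw arrays on the first probe set and all below them on the second. The level of brp as a gene therefore has no single order among the strains in these data. Where 1 value has to stand for a gene below, it is that of the probe set with the highest mean, which is 1636216_at.

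The remaining members are a neuronal RNA-binding protein and 2 ion channels. ELAV, the product of elav, directs splicing and 3′ end choice of neuronal transcripts. Its probe set (1636615_at) read 8.24 and 7.79 in w1118. It was 8.16 and 8.33 for the knockout, 7.03 and 6.35 for the tim-gal4 control, and 7.04 and 6.83 for overexpression. The w1118 and knockout arrays overlapped with each other and lay above all the yw arrays. The gene para encodes the voltage-gated sodium channel of the action potential. Its probe set (1627300_at) read 5.60 and 5.34 in w1118. It was 5.35 and 4.96 for the knockout, 5.07 and 4.13 for the tim-gal4 control, and 5.31 at both times for overexpression. The strains overlapped, and the tim-gal4 control ZT16 array was the lowest. The gene cac encodes the pore of the calcium channel that triggers release. One of its probe sets (1640033_at) was at background, at most 2.35. The other (1640614_at) read 8.15 and 8.27 in w1118. It was 8.0 and 7.79 for the knockout, 8.31 and 8.06 for the tim-gal4 control, and 8.35 and 8.05 for overexpression. Only the knockout lay apart, below the other 6 arrays.

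**Figure D2:**
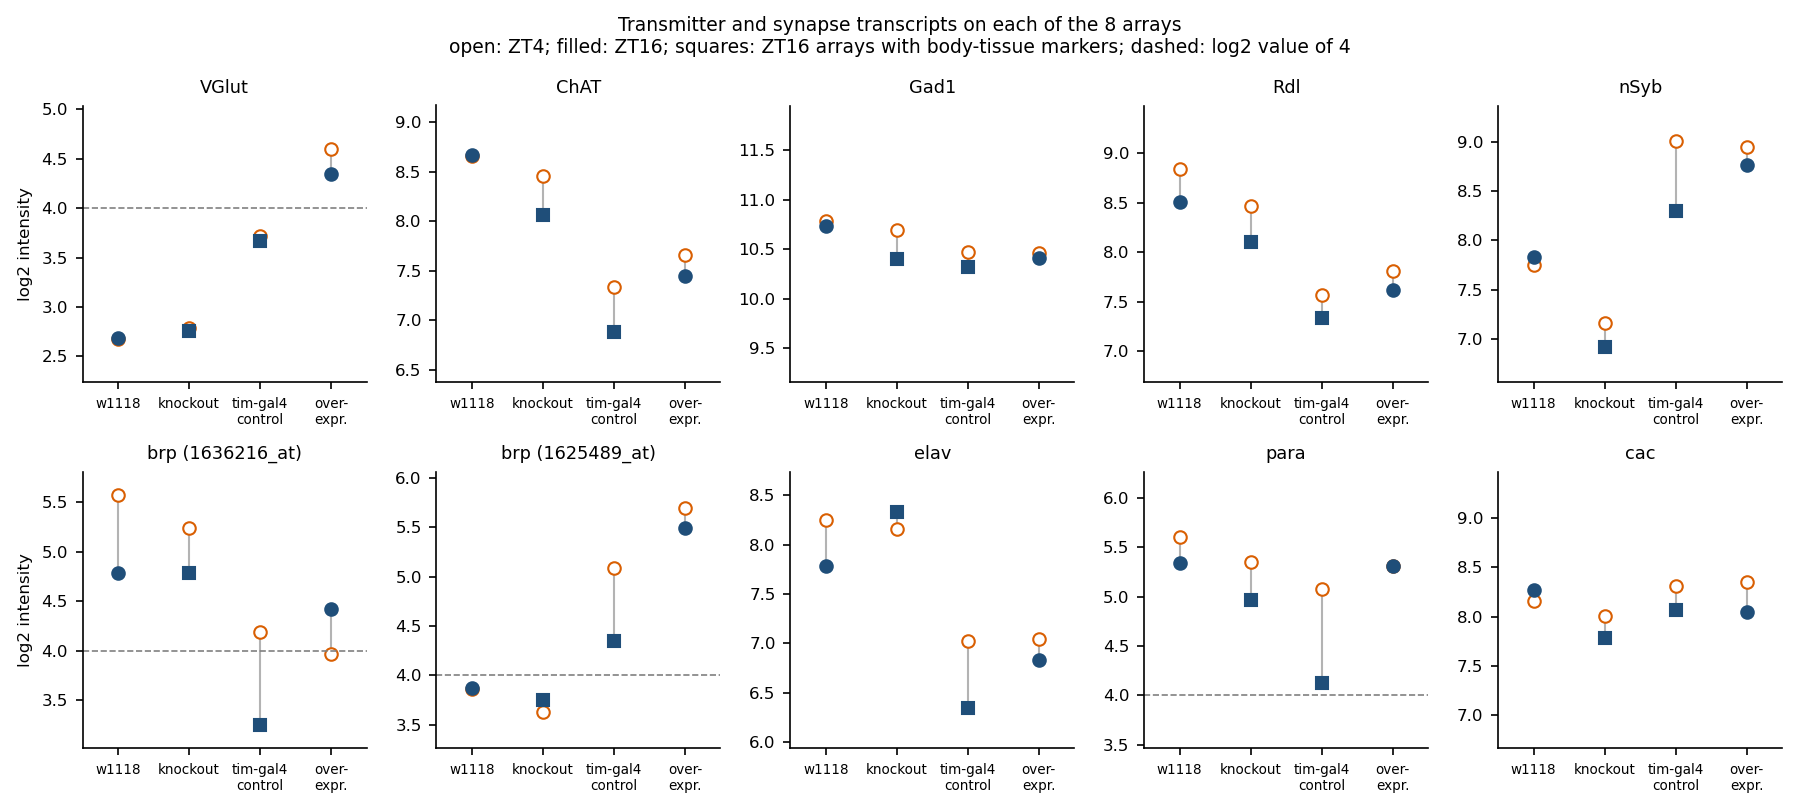
Log2 intensity (y axis) of the 10 probe sets that passed the filter, by strain (x axis), with 1 array per point. ChAT, Rdl, elav and brp 1636216_at are higher in w1118 and the knockout than in both yw strains, while nSyb, VGlut and brp 1625489_at are lower there. Each panel spans the same number of log2 units.

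Comparisons were made on the 8300 probe sets that reached a log2 value of 4 on 2 or more arrays. Of the 14 member probe sets, 10 passed, and they stand for all 9 genes. VGlut 1632620_at and brp 1625489_at passed through arrays of the yw strains alone, so that a difference between the backgrounds was built into their selection. The other 8 reached a log2 value of 4 in both backgrounds. Differences, standard errors (SE) and two-sided p-values came from limma, from a model with strain and time over the 8 arrays. Its error has 3 residual degrees of freedom and comes from how unequal the time changes are among strains. Probe sets with an adjusted p under 0.05, by Benjamini-Hochberg over all 8300, are said to be called, or to be higher or lower.

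The control strains, which carry neither the deletion nor UAS-mir-cluster, were compared first. ChAT was 1.56 higher on the log2 scale in w1118 than in the tim-gal4 control (SE 0.15, 2.94-fold, adjusted p = 0.00325 in limma). Rdl was 1.23 higher (SE 0.10, 2.34-fold, adjusted p = 0.00256 in limma). elav was 1.33 higher (SE 0.22, 2.51-fold), brp 1636216_at was 1.46 higher (SE 0.35, 2.76-fold) and para was 0.87 higher (SE 0.23, 1.83-fold), with adjusted p-values of 0.0124, 0.0319 and 0.0430 in limma. In the other direction nSyb was lower (-0.86, SE 0.20, adjusted p = 0.0293 in limma), as were brp 1625489_at (-0.85, SE 0.23, adjusted p = 0.0420) and VGlut (-1.01, SE 0.11, adjusted p = 0.0049). Each of these 8 had the same direction at ZT4 and at ZT16, and on each the w1118 and tim-gal4 control arrays did not overlap.

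Gad1 and cac were not called. Gad1 had a difference of 0.37 (SE 0.11, adjusted p = 0.0602 in limma), with w1118 above the tim-gal4 control at both times. For cac it was 0.02 (SE 0.14, adjusted p = 0.904 in limma), and the strains overlapped. Of the 10 probe sets, 5 were higher and 3 lower in w1118, against 30.9% called among all 8300 (19.9% higher and 11.0% lower). Of the 8 that reached a log2 value of 4 in both backgrounds, 6 were called, against 29.2% of the 7850 such probe sets on the array. The arrays of 9 of the 10 did not overlap, 6 with w1118 above and 3 with it below, as was so for 64.3% of all probe sets (41.4% above and 23.0% below). Of 9 glial markers 3 were higher in w1118 (median of the list 0.31), as were 1 of 10 photoreceptor markers (-0.03) and 2 of 11 muscle markers (0.49), and their part in the members' differences was not tested. The neuron markers elav and nSyb went in opposite directions, as did both brp probe sets that passed, so they give no common direction for neurons. In RNA of whole heads, the number of neurons and the RNA per neuron cannot be told apart. The w1118 background, the yw background, the driver and CyO change together between these strains, so that their parts cannot be told apart either.

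The tim-gal4 control ZT16 array is one of those with body-tissue markers. At ZT4, where neither control array carried them, the differences between w1118 and the tim-gal4 control were 1.33 for ChAT, 1.27 for Rdl, 1.22 for elav, 1.39 for brp 1636216_at and 0.53 for para. They were -1.25 for nSyb, -1.23 for brp 1625489_at and -1.04 for VGlut. With both arrays left out, the fit keeps 6 arrays and called 0 of all 8300 probe sets. Its differences were 1.38 for ChAT (SE 0.12, adjusted p = 0.0830 in limma), 1.24 for Rdl (SE 0.10, 0.0830), 1.15 for elav, 1.08 for brp 1636216_at and 0.46 for para, and -1.19 for nSyb, -1.17 for brp 1625489_at and -0.97 for VGlut. All 8 kept their direction, and para moved by more than 1.5 times. With each array centred on its median, para was not called (adjusted p = 0.0589 in limma) and the other 7 were. ChAT and Rdl were called in each fit that left out 1 array, with adjusted p-values of at most 0.0293 and 0.0263 in limma. VGlut was too (at most 0.0402), but its direction was built into its selection. elav lost its call without any 1 of 3 arrays, the tim-gal4 control ZT16 array (adjusted p = 0.0677 in limma), the w1118 ZT16 array (0.0631) and the w1118 ZT4 array (0.0668). Of the 8 such fits nSyb, para and brp 1625489_at were called in 1 each, and brp 1636216_at in 2. Leaving out either array of a strain outside the comparison gives the same fit, so that some of the 8 repeat each other. nSyb and brp 1625489_at were called without the tim-gal4 control ZT16 array, and para without the tim-gal4 control ZT4 array. The gene brp was called on 1636216_at without either overexpression array, which is the same fit counted again.

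**Figure D3:**
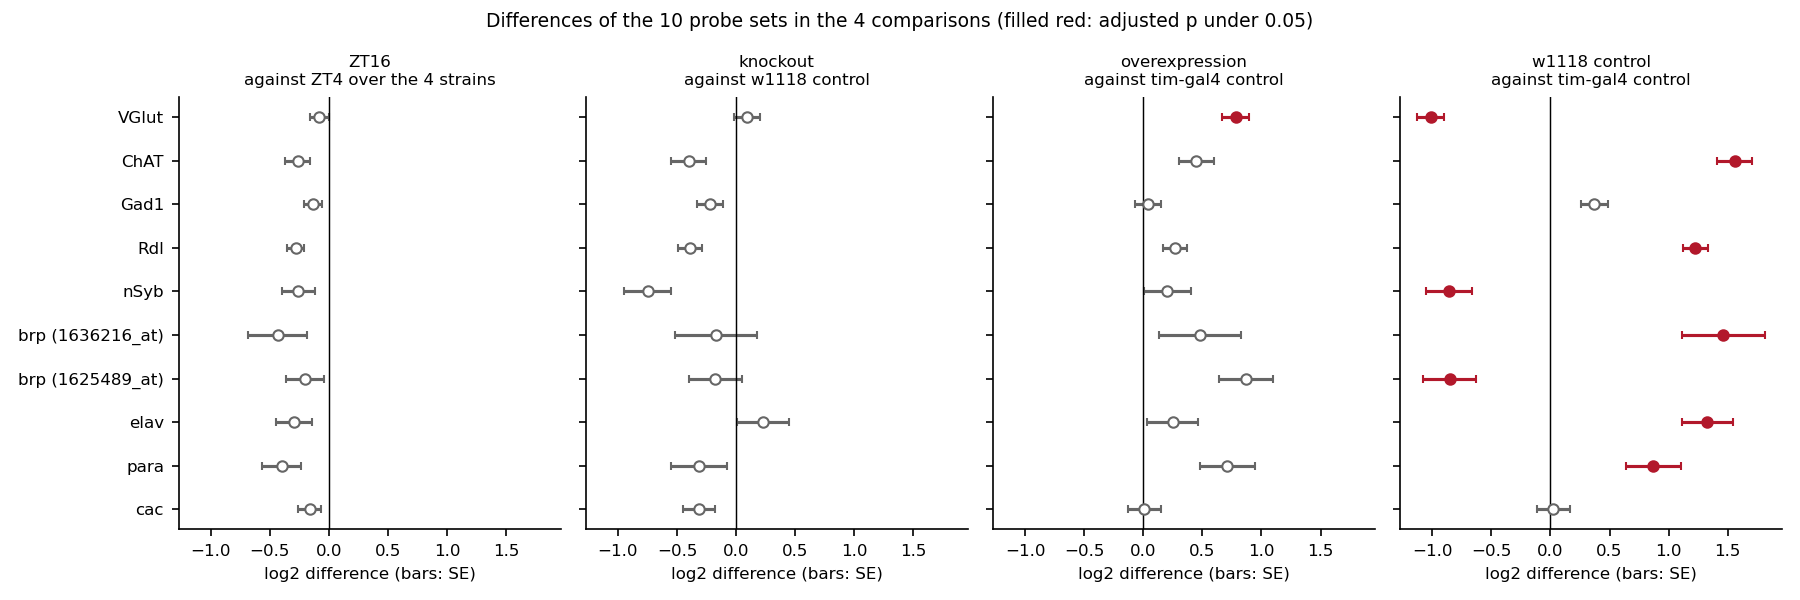
Log2 difference (x axis) of the 10 probe sets in each of the 4 comparisons, with bars for the SE from limma. Filled red points have an adjusted p under 0.05: there are 8 between the control strains, 1 (VGlut) under overexpression, and 0 in the knockout and between times.

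Other genes of the synapse were taken from fixed lists, each gene by the probe set with the highest mean. Of 105 further genes listed, 92 were on the array with 1 symbol and 78 passed the filter. Between the control strains 31 of the 78 were higher and 8 lower in w1118, that is 50.0%, against 30.9% of all probe sets. Their median difference was 0.36, against 0.11 for all probe sets that passed. Of the 78, 8 reached a log2 value of 4 in 1 background alone, so that a difference was built into their selection. These include the called genes ple and Ca-beta, seen in the w1118 background, and mGluR and Sytalpha, seen in the yw background. Of the other 70, 29 were higher and 6 lower. Without the 2 arrays with body-tissue markers the median of the 78 was 0.25 with 0 called, and 77 kept their sign. Of the called genes named below, those that moved by 1.5 times or more in that fit were nAChRbeta2 (0.61), mAChR-B (0.85), GABA-B-R3 (0.41) and sei (0.66). All lists were chosen with earlier results of these data known.

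The counts that follow include the members. Of all 8300 probe sets, 19.9% were called higher and 11.0% lower in this comparison. In the list of acetylcholine genes, 8 of 13 were higher in w1118, 1 was lower and 4 were not called. The higher ones included the muscarinic receptor gene mAChR-B (1.28, SE 0.27), the nicotinic receptor subunit gene nAChRbeta2 (1.03, SE 0.25) and ChT, the choline transporter (1.01, SE 0.15), while the subunit gene nAChRalpha5 was lower (-1.0, SE 0.21). Their adjusted p-values lay between 0.00978 and 0.0354 in limma. VAChT, the vesicular transporter of acetylcholine, differed by 0.13 and was not called. Of 7 genes for monoamine synthesis and transport, 6 were higher and 1 was not called. These included ple, the tyrosine hydroxylase of dopamine synthesis (1.67, SE 0.29), SerT, the serotonin transporter (0.94, SE 0.17), Hdc, the enzyme that makes histamine, the photoreceptor transmitter (0.91, SE 0.16), and Ddc, the decarboxylase of dopamine and serotonin synthesis (0.77, SE 0.14). For ple the level in the tim-gal4 control was 2.94, so that the size is not quantitative.

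Of 8 GABA genes, 2 were higher, Rdl and the metabotropic receptor gene GABA-B-R3 (0.63, SE 0.16), and 6 were not called. Of 8 glutamate genes, 2 were higher, 2 were lower and 4 were not called. KaiR1D, a kainate-type receptor subunit, read 6.08 in w1118 and 2.65 in the tim-gal4 control (3.43, SE 0.15, adjusted p = 0.000789 in limma). GluRIA, an AMPA-type subunit, was higher by 0.51, and the metabotropic receptor gene mGluR was called lower (-1.25, SE 0.27), as was VGlut, and both passed the filter through the yw strains alone. KaiR1D in the tim-gal4 control and mGluR in w1118 (2.71) were near the lowest value.

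The release genes had calls in both directions, as did all probe sets (19.9% higher and 11.0% lower). The median of the release list was 0.10, against 0.11 for all probe sets that passed. Of 13 release genes, 3 were higher, 2 were lower and 8 were not called. Sap47, a synapse-associated protein (1.16, SE 0.13), alphaSnap, which recycles fusion complexes (0.76, SE 0.14), and Cadps, which primes dense-core vesicles (0.66, SE 0.17), were higher. Sytalpha, of the synaptotagmin family (-1.46, SE 0.33), and nSyb were lower. Snap25 and cpx, whose products bind or form the same fusion complex as nSyb, were not called (0.43 and 0.10). Of 8 recycling genes 5 were higher and 1 was lower. The clathrin adaptor gene lap (0.97, SE 0.13), the endophilin gene EndoA (0.65, SE 0.13) and the amphiphysin gene Amph (0.59, SE 0.10) were higher, whereas shi, the dynamin of vesicle recycling, was lower (-0.57, SE 0.12).

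Among 8 active zone genes, 3 were higher and 1 was lower. The higher ones include brp, counted by 1636216_at (1.46), whereas its probe set 1625489_at was called lower (-0.85). Rbp, the RIM-binding protein, was higher (2.45, SE 0.14, from 6.93 in w1118 to 4.49 in the tim-gal4 control). Fife was higher (0.56, SE 0.14), and RhoGAP100F, known as Syd-1, was lower (-0.67, SE 0.17). Of 20 voltage-gated channel genes 6 were higher, 2 were lower and 12 were not called. The calcium channel genes Ca-beta (2.55, SE 0.30) and Ca-alpha1D (2.54, SE 0.16), the potassium channel gene sei (0.99, SE 0.20) and stj, the accessory calcium channel subunit (0.93, SE 0.14), were higher. Ca-beta read 2.88 in the tim-gal4 control, near the lowest value. In the ELAV family, elav was higher, Rbp9 was lower (-0.70, SE 0.14) and fne was not called (0.33).

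**Figure D4:**
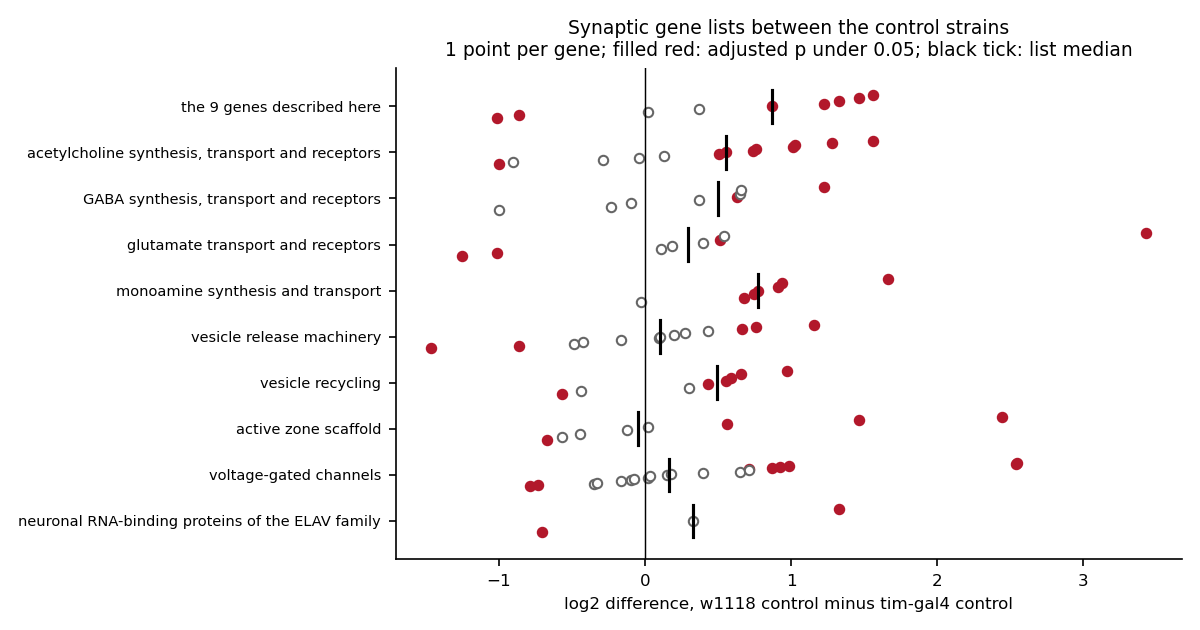
Log2 difference between w1118 and the tim-gal4 control (x axis) for each gene of 9 synaptic lists and of the 9 genes described here (y axis), 1 point per gene. Red points are called. Those on the right include 6 of 7 monoamine genes and 8 of 13 acetylcholine genes, with 1 acetylcholine gene called on the left. Release and channel genes were also called on both sides.

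The arrays were then set side by side by background. On 7 of the 10 probe sets the 4 arrays of w1118 and the knockout did not overlap with the 4 arrays of the yw strains, against 28.8% of all probe sets. Of the 8 that reached a log2 value of 4 in both backgrounds this was so for 5, against 26.8%. ChAT, Rdl, elav and brp 1636216_at were higher in w1118 and the knockout (15.2% of all probe sets were). nSyb, VGlut and brp 1625489_at were lower there (13.7% of all were). These are counts of values that do not overlap, with no test.

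Overexpression of the cluster was compared with the tim-gal4 control. VGlut was 0.78 higher on the log2 scale under overexpression (SE 0.11, 1.72-fold, adjusted p = 0.0131 in limma), and it was the single call among the 10 probe sets, against 20.5% of all 8300 (14.3% higher and 6.18% lower). It had passed the filter through the overexpression arrays alone, so that this difference was in part built into its selection. It was higher by 0.88 at ZT4 and by 0.68 at ZT16. Without any 1 of the 4 arrays of these strains it was not called, with adjusted p-values of 0.0695 to 0.0792 in limma.

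The largest difference was in brp 1625489_at (0.87, SE 0.23, adjusted p = 0.0522 in limma), which was not called. Nor were para (0.71, SE 0.23, adjusted p = 0.0918 in limma), brp 1636216_at (0.48, SE 0.35, 0.364) and ChAT (0.45, SE 0.15, 0.0914). VGlut, brp 1625489_at, para, ChAT and Rdl (0.27, SE 0.10, adjusted p = 0.133 in limma) are 5 probe sets on which both overexpression arrays were above both control arrays. Of all probe sets 38.1% were above in this way, 18.8% below, and 56.9% in either way. All 10 differences were above 0, as were 59.8% of all, and the median was 0.36, against 0.10 for all probe sets that passed. In brp 1625489_at, para and ChAT the differences were larger at ZT16, where the control array carried body-tissue markers: at ZT4 they were 0.60 for brp 1625489_at, 0.24 for para and 0.32 for ChAT, and at ZT16 they were 1.14, 1.18 and 0.57. For brp 1636216_at the difference was -0.22 at ZT4 and 1.18 at ZT16, for nSyb -0.06 and 0.47, and for elav 0.02 and 0.48. VGlut (0.88 and 0.68) and cac (0.04 and -0.02) went the other way. At ZT4 alone 7 of the 10 were above 0, with a median of 0.14. Without the 2 arrays that carried these markers the fitted differences were 0.55 for brp 1625489_at, 0.30 for para, 0.27 for ChAT and 0.82 for VGlut, and those of nSyb, cac and Gad1 fell below 0 (-0.12, -0.07 and -0.01). Without the probe sets high on the 2 arrays, brp 1625489_at and para were called with the same differences (adjusted p = 0.0148 and 0.0361 in limma), where 28.5% of 7928 probe sets were called.

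Of the 78 further synaptic genes, 7 were higher and 1 was lower under overexpression, that is 10.3%, against 20.5% of all probe sets. KaiR1D read 4.32 against 2.65 (1.67, SE 0.15, adjusted p = 0.00531 in limma), and Rbp 5.66 against 4.49 (1.18, SE 0.14, 0.00884). The nicotinic subunit gene nAChRalpha7 (0.84, SE 0.12), the GABA transporter gene Gat (0.75, SE 0.15), ChT (0.62, SE 0.15), lap (0.58, SE 0.13) and shi (0.47, SE 0.12) were also higher, with adjusted p-values of 0.0121 to 0.0450 in limma. Rbp9 was lower (-0.70, SE 0.14, adjusted p = 0.0294 in limma). Without the 2 arrays these 8 differences had the same signs, from 0.43 for lap to 1.65 for KaiR1D and -0.85 for Rbp9, with no call, and the median of the 78 was -0.01, against 0.16 with all arrays. Of the 78, 62 kept their sign without the 2 arrays. The w1118 comparison shares the tim-gal4 arrays, and its differences were 3.43 for KaiR1D, 2.45 for Rbp, 0.74 for nAChRalpha7, -0.09 for Gat, 1.01 for ChT, 0.97 for lap, -0.57 for shi and -0.70 for Rbp9. Among the 7 monoamine, 13 release and 20 channel genes limma called none, and the largest differences outside the members were 0.36 for Vmat, the vesicular monoamine transporter, 0.86 for Sytalpha (adjusted p = 0.128 in limma) and 0.59 for Teh3, an accessory protein of the sodium channel. Vmat, Sytalpha and Teh3 differed by 0.33, 0.31 and 0.28 without the 2 arrays. An unadjusted p under 0.05 was found for 36.1% of all probe sets in this comparison.

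In the knockout none of the 10 probe sets was called by limma, against 1.58% of all 8300 (0.759% higher and 0.819% lower), with adjusted p-values of 0.208 to 0.834. Of the 10, nSyb, Rdl and ChAT had an unadjusted p under 0.05, as did 14.1% of all. The largest difference was in nSyb (-0.75, SE 0.20, adjusted p = 0.211 in limma), with -0.59 at ZT4 and -0.90 at ZT16. Its knockout arrays, at 7.16 and 6.93, were below both w1118 arrays, at 7.75 and 7.83. ChAT differed by -0.40 (SE 0.15), Rdl by -0.39 (SE 0.10), cac by -0.31 (SE 0.14) and para by -0.31 (SE 0.23). The differences of elav (0.23, SE 0.22) and VGlut (0.09, SE 0.11) were above 0, and that of VGlut lay between values near the lowest.

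Of the 10 probe sets 8 had differences below 0, against 67.1% of all, with a median of -0.27 against -0.10 for all that passed. The strains did not overlap on 7, with the knockout below on 6 and above on VGlut, against 32.8% below, 11.7% above and 44.5% in either way among all probe sets. Of the glial markers 1 of 9 was lower in the knockout (median of the list -0.21), and of the photoreceptor markers none (-0.29), and their part was not tested. The knockout ZT16 array carried body-tissue markers. At ZT4, where neither array did, 9 of the 10 were below 0 with a median of -0.22, against -0.01 over all probe sets that passed. Without the 2 arrays with these markers the difference of nSyb was -0.65, that of ChAT -0.25, and that of elav -0.03. Of the 78 further synaptic genes limma called none in the knockout, and their median difference was -0.23, or -0.11 without the 2 arrays. Of the 78, 60 kept their sign without the 2 arrays. With the members included, all 13 release genes and all 20 channel genes that passed had differences below 0, as did 67.1% of all probe sets. These counts are over all arrays and were not taken without the 2 arrays. Among the channel genes other than members the largest was in slo, the calcium-activated potassium channel (-0.71, SE 0.11, adjusted p = 0.0625 in limma). Others were nAChRalpha4 (-0.85, SE 0.35), mAChR-B (-0.61, SE 0.27), Shaw, a potassium channel gene (-0.56, SE 0.19), SerT (-0.50, SE 0.17), VGAT, the vesicular GABA transporter (-0.48, SE 0.22), EndoA (-0.45, SE 0.13), Rbp (-0.41, SE 0.14) and fne (-0.41, SE 0.13), while Grik, a glutamate receptor gene, differed by 0.51 (SE 0.24), with no call. Without the 2 arrays the differences were -0.65 for slo, -0.32 for nAChRalpha4, -0.21 for mAChR-B, -0.33 for Shaw and -0.26 for SerT. They were -0.22 for VGAT, -0.29 for EndoA, -0.36 for Rbp, -0.31 for fne and 0.91 for Grik. Grik reached a log2 value of 4 in the w1118 background alone.

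Between ZT4 and ZT16 none of the 10 probe sets was called by limma over the 4 strains, against 0.373% of all 8300 (0.157% higher and 0.217% lower). All 10 differences were below 0, as were 68.5% of all, and the median was -0.26, against -0.08 for all probe sets that passed. The differences lay between -0.44 for brp 1636216_at (SE 0.25) and -0.08 for VGlut (SE 0.08), with adjusted p-values of 0.191 to 0.582. Rdl, whose ZT16 array read below its ZT4 array in all 4 strains, had a difference of -0.28 (SE 0.07, adjusted p = 0.191 in limma). Gad1 (-0.14, SE 0.08) and para (-0.40, SE 0.17) also had values below 0 in all 4 strains, and for para the overexpression arrays were nearly equal. An unadjusted p under 0.05 was found for Rdl and ChAT, and for 16.5% of all probe sets.

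The strains were unequal in this. The median change of the 10 probe sets was -0.57 in the tim-gal4 control and -0.26 in the knockout, whose ZT16 arrays carried body-tissue markers, and -0.20 under overexpression and -0.02 in w1118, whose arrays did not. Over all probe sets that passed, the medians in the same order were -0.17, -0.14, -0.01 and 0.00. In the tim-gal4 control all 10 were below 0, with changes of -0.95 in para, -0.94 in brp 1636216_at, -0.74 in brp 1625489_at, -0.70 in nSyb and -0.68 in elav. In w1118 5 were below and 5 above 0, from -0.79 in brp 1636216_at to 0.11 in cac. In the fit without the 2 arrays, which takes the change from w1118 and overexpression alone, the differences were -0.26 for Rdl, -0.34 for elav, -0.13 for para and -0.17 for brp 1636216_at, with no call. Of the 78 further synaptic genes limma called none between the times, with a median of -0.19, or -0.04 without the 2 arrays. Of the 78, 57 kept their sign without the 2 arrays. Genes with the largest differences of their lists were SerT (-0.55, SE 0.12), Rph, the rabphilin of vesicles (-0.50, SE 0.14), the acetylcholinesterase gene Ace (-0.42, SE 0.16), GluClalpha, the glutamate-gated chloride channel (-0.40, SE 0.11), and Fife (-0.38, SE 0.10), with adjusted p-values of 0.165 to 0.292 in limma. In the same order these differences were -0.32, -0.27, -0.25, -0.34 and -0.23 without the 2 arrays.

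**Figure D5:**
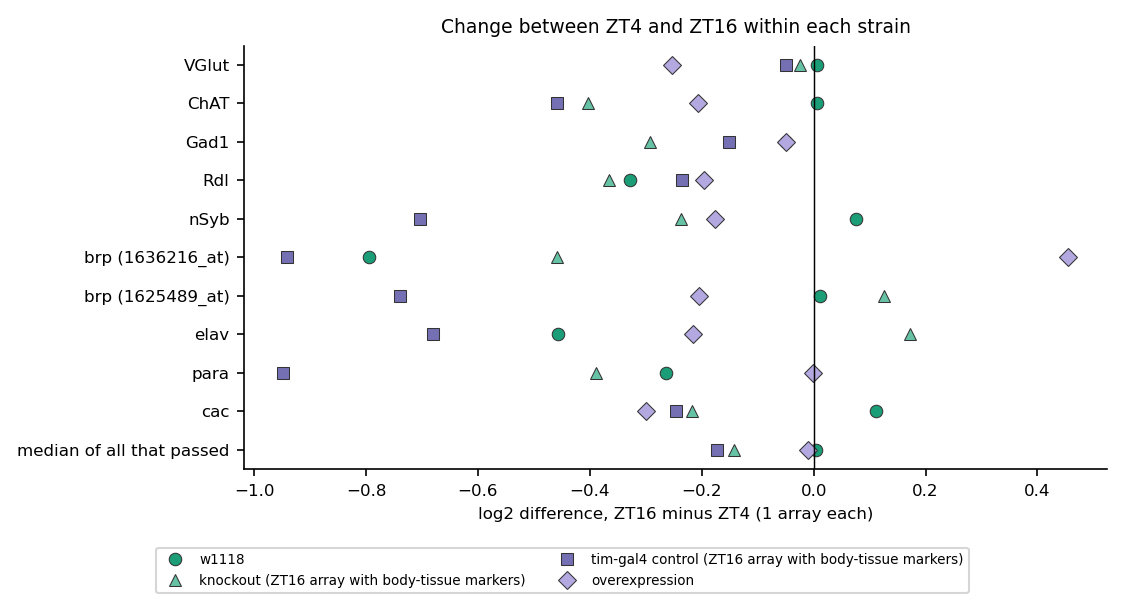
Log2 change from ZT4 to ZT16 (x axis) of each of the 10 probe sets within each strain, and the median over all probe sets that passed the filter (bottom row). Each point is a difference of 2 single arrays. The tim-gal4 control lies below 0 in all 10, and w1118 on both sides of 0.

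A mean course of the 9 genes over the arrays was taken from their probe sets, each centred on its own mean. It averages genes of opposite order between the backgrounds and is not a course that all 9 share. ChAT, Rdl, elav and brp 1636216_at were higher in w1118 and the knockout, and nSyb and VGlut were lower there. The mean was highest on the w1118 ZT4 array (0.34) and lowest on the tim-gal4 control ZT16 array (-0.55). The transcripts most like this mean were CG14408 (Pearson r = 0.986), CG6621 (0.981), tei (0.976), Tsp42Ej (0.969) and Ppa (0.969). These values are over 8 arrays that share strains and times, were picked as the highest of all, and are given as a description.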

How the data were processed

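Labelled RNA from fly heads was hybridized to 8 Affymetrix arrays. The deposited values are log2 intensities, 1 per probe set, made with GCRMA per the submitters' processing notes; its version and settings are not given in the sources used here. GCRMA corrects background and normalizes arrays jointly, so values near the lowest are compressed. Left out were 183 control probe sets. Of the remaining 18769, 13647 had 1 gene symbol in the platform annotation, 402 several and 4720 none; 13544 of the single symbols matched a RefSeq gene (Drosophila Release 6). Fits used limma 3.58.1 in R 4.3.3, checked on simulated data, and Python 3.11.15 (with pandas 2.3.3, numpy 2.4.6 and, for figures, matplotlib 3.10.9) made the tables. With 1 array per condition, the p-values set a difference against an error taken from how unequal the time changes are between strains. That error is not a spread among replicates, and the number of arrays limits the precision. Strain means are over 2 arrays.

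The 9 genes and all lists were chosen with earlier results of these data known. From each list the text names up to 4 called genes with the largest differences, or the 2 largest where none was called. VAChT, Snap25, cpx and fne between the control strains were added after their values were seen, as were nAChRalpha7 and Gat there. No replicate numbers pair the arrays. Alternatives covered the filter, normalization, scaling, arrays, moderation, probe sets per gene and the strain and time terms.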

Additional observations from a re-analysis of the deposited data

Results flagged for a closer look

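For brp 1625489_at the change from ZT4 to ZT16 had opposite signs in the backgrounds: it was 0.0105 for w1118 and 0.13 for its knockout, whereas the tim-gal4 control had -0.74 and overexpression -0.21. The difference between the backgrounds was not tested. The w1118 and knockout values were all under a log2 value of 4, and the tim-gal4 control ZT16 array carried body-tissue markers. The other brp probe set above the filter did not show this split.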

How the results depend on the processing

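No paired analysis was possible because each condition has 1 array, beyond the strain term of the model, which sets ZT16 against ZT4 within each of the 4 strains. The numbers of probe sets called were 31 between times, 131 in the knockout, 1698 under overexpression and 2567 between the control strains. They became 0, 30, 648 and 1100 with no filter, 0, 0, 14 and 83 with only 4 arrays in the fit, and 0 in all 4 without the 2 arrays with body-tissue markers. Leaving out 1 array gave 0 to 1, 2 to 64, 131 to 1252 and 754 to 1902. Without the probe sets high on those 2 arrays the counts were 292 between times and 296 in the knockout, and with trended and robust moderation 234 and 246. Quantile normalization gave 3 between times (2 higher, 1 lower, against 13 and 18), no strain block gave 7, and 1 value per gene gave 79 in the knockout. Centring the arrays moved the median of all probe sets between the control strains from 0.11 to 0.01 and the split from 1655 higher and 912 lower to 1258 and 1166. Where these differ, the cause was not tested. Fits with fewer arrays have fewer residual degrees of freedom than the 3 of the main fit. A call lost in them therefore need not mean a smaller difference.

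Over 676 refits of single probe sets, 580 kept direction and side of the threshold, 65 lost a call, 9 gained one and 22 changed sign. Of the 580, 169 between times and 164 in the knockout had no call to lose. Between the control strains, where most calls were, 104 refits kept direction and side of the threshold and 58 lost a call. Leaving out either array of a strain outside the comparison gave the same fit, so that some refits repeat each other. No probe set that had been called changed sign. Between the control strains, ChAT and Rdl, at 1.56 and 1.23, lost their calls in the refit with only 4 arrays (1.56 and 1.23, adjusted p = 0.0695 and 0.0704 in limma) and without the 2 arrays (1.38 and 1.24, both 0.0830), and in none of the other refits. The others lost theirs in further refits: VGlut with trended and robust moderation (adjusted p = 0.0553 in limma), para with arrays centred (0.0589) or quantile normalization (0.0629), elav, nSyb, para and both brp probe sets with no filter (0.0845 to 0.197), and nSyb, para and both brp probe sets without the time term (0.0501 to 0.101). Gad1 gained a call with quantile normalization (0.0343) and with trended and robust moderation (0.0248). Under overexpression trended and robust moderation removed the call of VGlut (0.149) and gave calls to ChAT (0.0417), para (0.0406) and brp 1625489_at (0.0211), and quantile normalization gave one to the last (0.0444). With arrays centred, Gad1 (-0.0315) and cac (-0.0629) had differences below 0 under overexpression, as did cac (-0.0811) between the control strains. Quantile normalization did so for cac in the same comparisons (-0.0713 and -0.0032) and for VGlut in the knockout (-0.0728). Without the 2 arrays with body-tissue markers, this held for Gad1 (-0.0095), cac (-0.0662) and nSyb (-0.1236) under overexpression, cac between the control strains (-0.0520) and elav in the knockout (-0.0261). The remaining sign changes came from leaving out 1 array. Under overexpression those fits ranged from -0.0157 to 0.0982 for Gad1, -0.1150 to 1.0710 for brp 1636216_at, -0.0820 to 0.1017 for cac, -0.0088 to 0.5038 for elav and -0.0925 to 0.4981 for nSyb. In the knockout they ranged from -0.3941 to 0.0428 for brp 1625489_at, -0.4080 to 0.0715 for brp 1636216_at and -0.0833 to 0.5399 for elav, and between the control strains from -0.1594 to 0.2073 for cac. Values near 2.32 limit VGlut in w1118 and the knockout, where brp 1625489_at was under a log2 value of 4.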
